A study of Saccharomyces cerevisiae with 22 samples.

Results

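The 10 heat shock and chaperone genes described here are *HSP12*, *HSP26*, *HSP30*, *HSP42*, *HSP78*, *HSP82*, *HSC82*, *HSP104*, *SSA1* and *SSA4* of *Saccharomyces cerevisiae*. They were found by gene symbol in the probe annotation, and all 10 were measured, among 5311 named genes and 6373 features in all. Each had 1 probe, spotted 2 times on every array. All 10 exceeded the local background in both dyes on 22 of 22 arrays.

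RNA of mutant strains was hybridised to 2-colour arrays of 70-mer oligonucleotides, each comparing a mutant with a pool of wild type RNA that served as the common reference. The study set the kinase Ctk1, which phosphorylates the C-terminal domain (CTD) of RNA polymerase II, beside factors of transcription termination, RNA decay and chromatin. Of 12 mutant profiles, 10 have 2 arrays with swapped dyes, called a (mutant in Cy3) and b (mutant in Cy5), and 2 have 1 array. All values are log2 ratios of mutant over reference unless a difference between mutants is named.

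The mutants in SC medium were *ctk1*Δ, *set2*Δ, *eaf3*Δ, *rco1*Δ, *rtt103*Δ, *rrp6*Δ, *lrp1*Δ and the temperature-sensitive alleles *sen1-1*, *pcf11-2* and *pcf11-ts2*. Per the paper these were all grown at the same temperature, which is permissive for the temperature-sensitive alleles. Set2 methylates histone H3, and Eaf3 and Rco1 belong to the Rpd3S deacetylase that reads this mark. Rtt103 and Pcf11 bind the CTD in termination, Sen1 is a helicase of the Nrd1-Nab3-Sen1 complex, and Rrp6 and Lrp1 belong to the nuclear exosome. *ctk1*Δ was also grown in YPD, a richer medium, together with *rpb1-S2A*, in which the serines at the second position of the CTD repeats are alanines. The labels give BY4742 as background for every strain, and the titles of the *rpb1-S2A* arrays add matA, mating type a. The medium of the reference RNA is not given in the sources used here. In the YPD profiles medium and mutation thus cannot be told apart against the reference. The *pcf11* alleles came from single cultures, and the labels do not say which arrays of the other mutants share a culture. p-values therefore measure the spread between arrays, which may be technical.

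The deleted gene had a log2 ratio between −2.46 and −4.06 in its own strain, *PCF11* had −0.99 in *pcf11-2* and −1.24 in *pcf11-ts2*, *SEN1* had 0.28 in *sen1-1*, and *RPO21*, which encodes the mutated polymerase subunit, had −1.97 in *rpb1-S2A*. In *sen1-1*, both *pcf11* alleles and *rpb1-S2A*, 7 of 7 genes specific to mating type a were higher than in the reference and 4 of 4 specific to type alpha lower. These 4 strains thus differed from the reference in mating type as well. In the paper the *sen1* and *pcf11* mutants were compared with wild types of mating type a. Pearson's correlation of replicate arrays over all features was between 0.53 (*set2*Δ) and 0.97 (*ctk1*Δ in SC).

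Yeast has separate routes to heat shock gene transcription. Hsf1, an essential factor, binds heat shock elements and keeps the basal level of abundant chaperones, while Msn2 and Msn4 bind stress response elements when protein kinase A activity is low, as in slow growth or many stresses. Many chaperone genes carry both elements. Accordingly *HSP12* and *HSP26* were taken as Msn2/Msn4-type, *HSP82*, *HSC82* and *SSA1* as Hsf1-type, and *HSP42*, *HSP78*, *HSP104* and *SSA4* as genes under both. *HSP30*, which encodes a plasma membrane protein that dampens the proton pump Pma1, was kept apart. The classes come from textbook knowledge and are a simplification, and their elements were not searched for here. *HSP26* could also be placed with the genes under both. That assignment was not tried.

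A gene was called where limma's Benjamini-Hochberg adjusted p was under 0.05 and the fold change over 1.7, tested against 0. In *ctk1*Δ in SC, 6 of the 10 genes rose, where 7.28% of all features rose. The same 6 genes rose in *ctk1*Δ in YPD (6.79% of all features) and in *rpb1-S2A* (7.23%). They were *HSP12*, *HSP26*, *HSP42*, *HSP78*, *HSP104* and *SSA4*. In *pcf11-2* (5.54%) and *sen1-1* (5.21%) 2 of 10 rose, *HSP12* and *HSP26*. In *set2*Δ 2 of 10 rose, *HSP12* and *HSP78* (1.35%). *HSP12* alone rose in *pcf11-ts2* (3.17%), *rco1*Δ (0.769%), *eaf3*Δ (0.549%) and *lrp1*Δ (0.973%), and none of the 10 in *rtt103*Δ (0.126%) and *rrp6*Δ (1.63%). In these last mutants, 2 and 1 of the 10 genes had an unadjusted p under 0.05, where 1886 and 2663 of all 6373 features did. *HSP30* was among them in both, and was lower than the reference (−0.21 and −0.19).

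None of the 10 genes fell in any profile. Over all features the share that fell was 2.84% in *ctk1*Δ in SC, 2.7% in *ctk1*Δ in YPD, 5.16% in *rpb1-S2A*, 2.09% in *pcf11-2*, 0.863% in *pcf11-ts2*, 1.29% in *sen1-1*, 0.267% in *set2*Δ, 0.141% in *rco1*Δ, 0.235% in *eaf3*Δ, 0.282% in *lrp1*Δ, 1.15% in *rtt103*Δ and 0.596% in *rrp6*Δ. *HSP30*, *HSP82*, *HSC82* and *SSA1* were called in no profile.

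**Figure D1:**
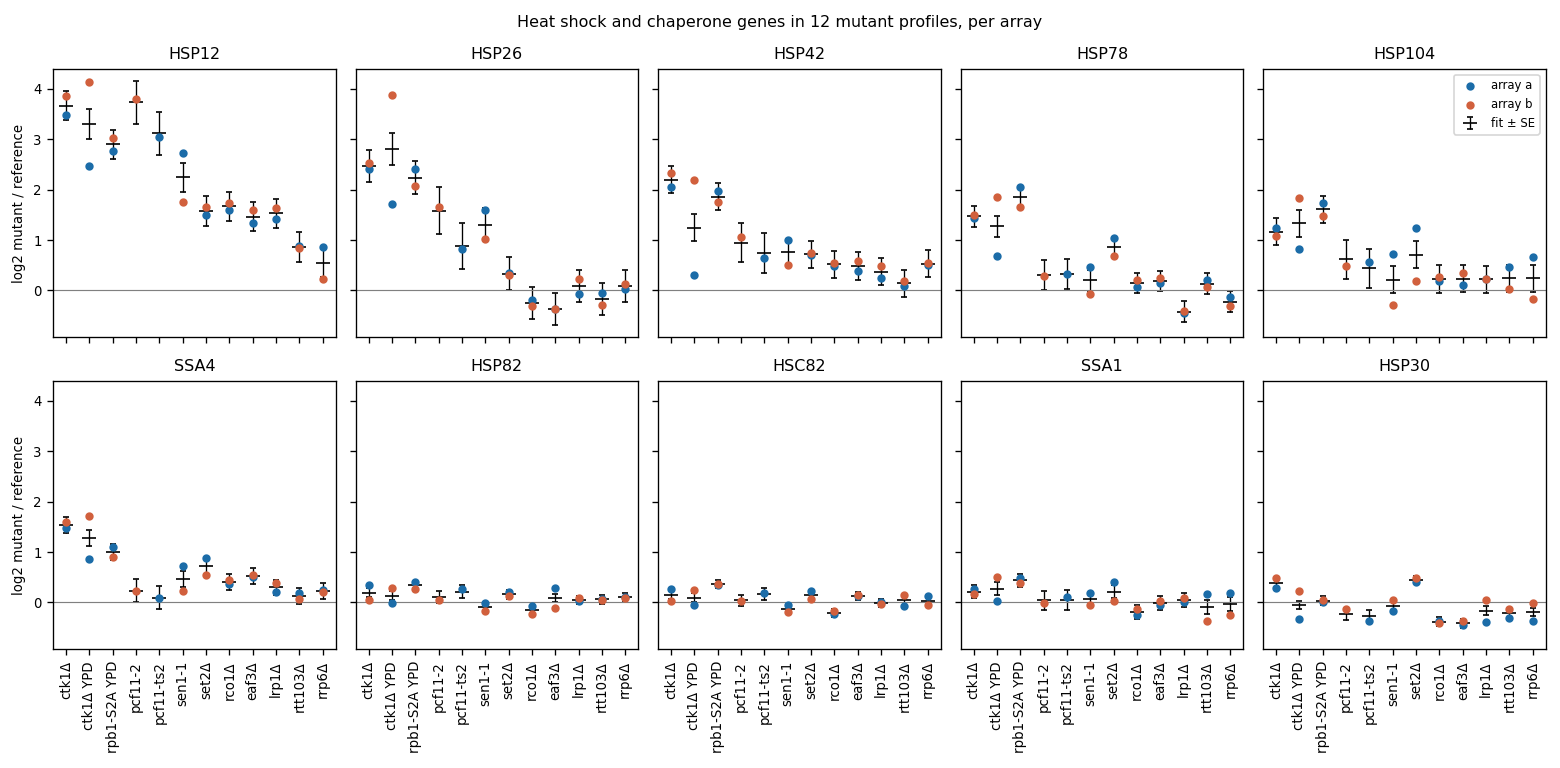
Log2 ratios of mutant over reference (y axis) for each of the 10 genes (panels) in the 12 profiles (x axis, SC medium unless YPD is given). Points are single arrays, a in blue and b in orange, and black bars are the limma fit with its standard error. *HSP12* lies above 0 on all 22 arrays, while *HSP82*, *HSC82* and *SSA1* stay near 0 in every profile.

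*HSP12* encodes a small membrane-associated heat shock protein and is a usual reporter of Msn2/Msn4 activity. On the *ctk1*Δ arrays in SC its spots read 9760 and 15760 in the mutant dye against 916.7 and 824.1 in the reference dye, as scanned. After normalization the log2 ratios were 3.47 and 3.86, and the fit gave 3.67 (SE 0.29, adjusted p = 3e-07), a 12.7-fold rise. It was the feature with the 2nd highest ratio of all 6373 in this mutant, and it ranked 1st in *ctk1*Δ in YPD.

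*HSP12* was as high in *pcf11-2*, with 3.81 on its only array and a fitted value of 3.73 (SE 0.42, adjusted p = 2.6e-05). In *pcf11-ts2* the array gave 3.04 and the fit 3.12 (SE 0.42, adjusted p = 0.00024). *rpb1-S2A* had 2.77 and 3.03 (fit 2.90), and *sen1-1* had 2.73 and 1.76 (fit 2.25). With both *ctk1*Δ profiles, these 4 mutants made up the 6 highest *HSP12* ratios. The labels give RNA extraction as standard or high-throughput. In these 6 profiles, except *ctk1*Δ in SC, the reference is labelled high-throughput, and in the other mutants standard. Reference extraction and mutation thus cannot be told apart in this order.

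In the remaining deletion mutants *HSP12* was lower, but still among the highest features. It had 1.60 and 1.74 in *rco1*Δ, 1.49 and 1.66 in *set2*Δ, 1.43 and 1.63 in *lrp1*Δ and 1.33 and 1.60 in *eaf3*Δ, with fitted values between 1.46 and 1.67 and adjusted p between 0.0015 and 0.0044. The arrays of these 4 mutants overlapped with each other and lay below both *ctk1*Δ arrays in SC. With either array left out, the calls in *eaf3*Δ (adjusted p = 0.098 and 0.061) and *lrp1*Δ (0.056 both times) were lost, with *HSP12* still at 1.40 and 1.53 in *eaf3*Δ and at 1.5 and 1.56 in *lrp1*Δ. In *rtt103*Δ the arrays had 0.88 and 0.85, and the fit of 0.87 missed the threshold (adjusted p = 0.055). In *rrp6*Δ they had 0.87 and 0.23 (fit 0.55, adjusted p = 0.17), and *HSP12* ranked 214th there.

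Ordered by the fit, no pair of neighbouring profiles differed in *HSP12* by more than 2 standard errors of their difference. *HSP12* was above 0 on all 22 arrays, with a median over the 12 profiles of 1.96. A low level of *HSP12* in the common reference would shift alike all profiles with the same reference RNA. These ratios alone cannot tell such a shift apart from a rise in every mutant. When each feature was centred on its median over the 12 profiles, *HSP12* stood at −0.29 in *rco1*Δ, −0.38 in *set2*Δ, −0.43 in *lrp1*Δ and −0.49 in *eaf3*Δ. With that centring it fell in *rtt103*Δ (−1.09, adjusted p = 0.022) and *rrp6*Δ (−1.41, adjusted p = 0.0023). Differences between mutants, given further on, do not contain the reference as far as it was the same RNA. Its extraction label is not the same in all profiles.

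*HSP26* encodes a small heat shock protein that binds unfolding proteins. It had 2.40 and 2.54 on the *ctk1*Δ arrays in SC (fit 2.47, SE 0.32, adjusted p = 2.1e-05), 1.72 and 3.88 in *ctk1*Δ in YPD (fit 2.80) and 2.40 and 2.08 in *rpb1-S2A* (fit 2.24). *pcf11-2* had 1.65 (fit 1.58, adjusted p = 0.017) and *sen1-1* 1.60 and 1.01 (fit 1.31, adjusted p = 0.0040). All of these arrays were above the single *pcf11-ts2* array, which had 0.81 (fit 0.88, adjusted p = 0.21).

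Unlike *HSP12*, *HSP26* stayed between −0.37 and 0.35 on the arrays of the other deletion mutants. It had 0.35 and 0.32 in *set2*Δ, −0.06 and 0.22 in *lrp1*Δ, 0.04 and 0.12 in *rrp6*Δ, −0.06 and −0.29 in *rtt103*Δ, −0.19 and −0.31 in *rco1*Δ and −0.37 on both *eaf3*Δ arrays. None of these profiles passed the threshold. Without array a of *sen1-1* its call there was lost (0.90, adjusted p = 0.15). Over the 12 profiles *HSP26* had an SD of 1.14 and *HSP12* one of 1.10, both above the SD of 99% of all features.

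Among the genes under both factors, *HSP42*, another small heat shock protein that gathers misfolded proteins, was highest in *ctk1*Δ in SC, within 2 standard errors of *rpb1-S2A*. It had 2.05 and 2.34 in *ctk1*Δ in SC (fit 2.19, SE 0.27, adjusted p = 1.3e-05) and 1.97 and 1.76 in *rpb1-S2A* (fit 1.86). In *ctk1*Δ in YPD it had 0.30 on array a and 2.19 on array b. The ratio was above 0 on all 22 arrays, with fitted values between 0.14 (*rtt103*Δ) and 0.95 (*pcf11-2*, adjusted p = 0.073) in the 9 profiles where it was not called. In *sen1-1* it had 1.01 and 0.51 (adjusted p = 0.030, under the fold minimum), and 1.15 with array b left out, which passed.

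*HSP104* encodes the disaggregase that returns proteins from aggregates, and *HSP78* its relative in mitochondria. *HSP104* had 1.25 and 1.08 in *ctk1*Δ in SC (fit 1.17, SE 0.27, adjusted p = 0.0022), 0.82 and 1.84 in *ctk1*Δ in YPD (fit 1.33) and 1.73 and 1.48 in *rpb1-S2A* (fit 1.61). *HSP78* had 1.44 and 1.5 in *ctk1*Δ in SC (fit 1.47, SE 0.20, adjusted p = 3.8e-05), 0.69 and 1.86 in *ctk1*Δ in YPD (fit 1.27) and 2.05 and 1.66 in *rpb1-S2A* (fit 1.85). Both were highest in *rpb1-S2A*, within 2 standard errors of the next profile.

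In *set2*Δ the arrays disagreed on these genes. *HSP78* had 1.04 and 0.68 there (fit 0.86, adjusted p = 0.0073) and lost its call without array a (0.66, adjusted p = 0.18). *HSP104* had 1.23 and 0.18 (adjusted p = 0.070) and passed without array b (1.16, adjusted p = 0.045). Without that array *SSA4* passed as well, so that 4 of the 10 genes rose in *set2*Δ.

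*SSA4*, the strongly heat-inducible member of the cytosolic Hsp70 family, had 1.47 and 1.61 in *ctk1*Δ in SC (fit 1.54, SE 0.16, adjusted p = 2.7e-06). It had 0.86 and 1.71 in *ctk1*Δ in YPD (fit 1.28) and 1.09 and 0.90 in *rpb1-S2A* (fit 1.00). These profiles lay above the fitted values elsewhere, which ranged from 0.09 in *pcf11-ts2* to 0.72 in *set2*Δ (adjusted p = 0.0047, under the fold minimum). In *pcf11-2*, where *HSP12* was as high as in *ctk1*Δ, *SSA4* had 0.24 on the array. The probe may also bind RNA of the related *SSA3*, which had 0.57 in *ctk1*Δ in SC.

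The Hsf1-type genes encode abundant chaperones: *HSC82* and *HSP82* the constitutive and the inducible Hsp90, *SSA1* a main cytosolic Hsp70. In *ctk1*Δ in SC, *HSP82* spots read 8825 and 10030 in the mutant dye against 8321 and 7684 in the reference dye. The normalized ratios were 0.35 and 0.04 (fit 0.19, SE 0.09, adjusted p = 0.065). *HSC82* had 0.27 and 0.03 there (fit 0.15) and *SSA1* 0.26 and 0.17 (fit 0.22).

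Across the 12 profiles the fitted values stayed between −0.15 and 0.34 for *HSP82*, between −0.20 and 0.36 for *HSC82* and between −0.19 and 0.44 for *SSA1*. All 3 were lowest in *rco1*Δ and highest in *rpb1-S2A*. In *rpb1-S2A* they had adjusted p of 0.0035, 0.0016 and 0.011, with ratios under the fold minimum. Their SDs over profiles were above those of 25.2%, 31.6% and 43.1% of all features. *HSP82* and *HSC82* are near-identical paralogs, and their ratios followed each other (Pearson's r = 0.97 over the 12 profiles, which share the reference), so their separate values are uncertain. *SSA1*, which *SSA2* resembles closely, was saturated on 3 arrays.

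*HSP30* was the dimmest of the 10 on the arrays, with spots from 82.3 to 458.3 in the mutant dye against 88.2 to 531.6 in the reference dye. It had 0.30 and 0.48 in *ctk1*Δ in SC (fit 0.39, adjusted p = 0.0017) and 0.41 and 0.48 in *set2*Δ (fit 0.45, adjusted p = 0.0020), both under the fold minimum. It had −0.46 and −0.38 in *eaf3*Δ (fit −0.42, adjusted p = 0.0057) and −0.36 and −0.40 in *rco1*Δ (fit −0.38, adjusted p = 0.0080). The arrays of *ctk1*Δ in SC and *set2*Δ thus did not overlap with those of *eaf3*Δ and *rco1*Δ. In *ctk1*Δ in YPD the gene had −0.33 on array a, close to *rco1*Δ, and 0.23 on array b. In *rpb1-S2A* the gene stood at 0.02 and 0.05.

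Set side by side by their medians, the Hsf1-type genes were the lowest of the 3 classes on every array, with *HSP30* left aside. The median of the Msn2/Msn4-type genes was above that of the Hsf1-type genes on 22 of 22 arrays, and so was the median of the genes under both. The Msn2/Msn4-type median was not always the highest, with 0.92 on array a of *set2*Δ against 0.97 for the genes under both. Both Msn2/Msn4-type genes lay above all 3 Hsf1-type genes on 13 of 22 arrays. Of the pairs of a gene and a profile, 15 of 24 were called for the Msn2/Msn4-type, 13 of 48 for genes under both, 0 of 36 for the Hsf1-type (3 with no fold minimum, all in *rpb1-S2A*) and 0 of 12 for *HSP30*. Of the 15 calls, *HSP12* gave 10. Over all features 0.126% to 7.28% rose in a profile, so that 0 of 36 and 0 of 12 are near that share. Pairs of the same gene are not separate observations. With each feature centred on its median over profiles, the Msn2/Msn4-type median was above the Hsf1-type median on 10 of 22 arrays.

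The distance between the classes differed between mutants. The reference is labelled high-throughput in *sen1-1*, both *pcf11* alleles and the YPD profiles, and standard elsewhere, and the part of that label was not tested. The Msn2/Msn4-type, dual and Hsf1-type medians of fitted values were 3.07, 1.5 and 0.19 in *ctk1*Δ in SC. They were 3.05, 1.28 and 0.14 in *ctk1*Δ in YPD, and 2.57, 1.73 and 0.36 in *rpb1-S2A*. In *pcf11-2* they were 2.66, 0.46 and 0.05, in *pcf11-ts2* 2.0, 0.38 and 0.17, and in *sen1-1* 1.78, 0.34 and −0.09. Genes under both were thus 1.14 to 1.37 above the Hsf1-type genes in both *ctk1*Δ profiles and *rpb1-S2A*, and 0.21 to 0.43 above them in *sen1-1* and the *pcf11* alleles. Single arrays came closer, with 0.76 on a and 1.57 on b of *ctk1*Δ in YPD, and 0.73 on a and 0.24 on b of *sen1-1*. The medians in *set2*Δ were 0.96, 0.72 and 0.16.

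**Figure D2:**
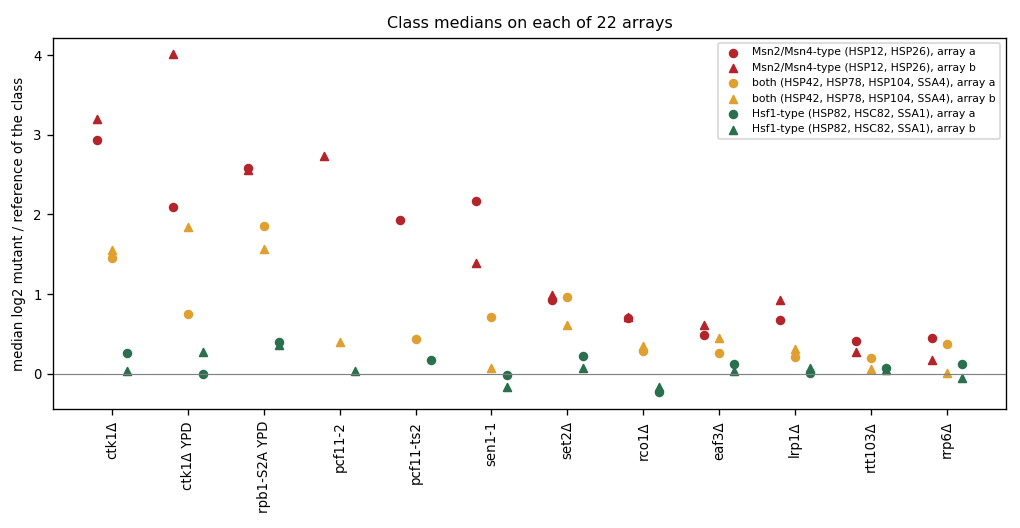
Median log2 ratio of mutant over reference (y axis) of the 3 classes of genes on each array, by profile (x axis). Circles are arrays a and triangles arrays b. The Msn2/Msn4-type median is above the Hsf1-type median on 22 of 22 arrays, and the classes lie closest in *rtt103*Δ and *rrp6*Δ.

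The pair arrays of *ctk1*Δ in YPD disagreed on all 10 genes in the same direction. The arrays differed by 1.66 in *HSP12* (2.47 on a, 4.13 on b) and by up to 2.16, in *HSP26*, and array b was higher for 10 of 10 genes. Of the 10 gaps, 6 exceeded the gap of 95% of all features, which was 0.63. In *ctk1*Δ in SC the largest gap among the 10 genes was 0.39.

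The same arrays in YPD also differed in stress genes that encode no chaperone: all 30 genes of a list of trehalose, glycogen and other stress genes were higher on array b, with a median of 1.87 there and 0.51 on array a. Without array b, 3 of the 10 genes rose in *ctk1*Δ in YPD (*HSP12*, *HSP26* and *SSA4*), with *HSP42* at 0.31 (adjusted p = 0.12), *HSP78* at 0.62 and *HSP104* at 0.63 (adjusted p = 0.097). Without array a, all 6 remained. In *sen1-1* array a was the higher for 9 of the 10 genes and for 30 of 30 stress genes, with medians of the list of 0.94 on a and 0.37 on b. *HSP104* differed most there, with 0.72 on a and −0.29 on b. The higher array had the mutant in Cy5 for *ctk1*Δ in YPD and in Cy3 for *sen1-1*. The part of the dye or of the culture in these gaps was not tested.

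**Figure D3:**
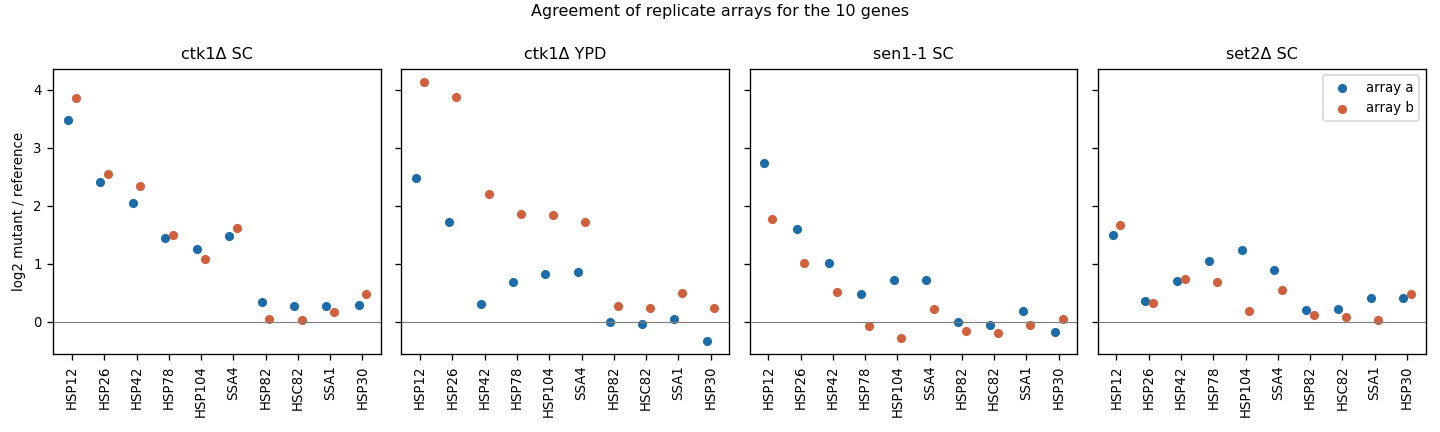
Log2 ratios of mutant over reference (y axis) of the 10 genes (x axis) on array a (blue) and array b (orange) of 4 mutants. The arrays of *ctk1*Δ in SC lie within 0.39 of each other, while those of *ctk1*Δ in YPD differ by up to 2.16.

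To ask where *ctk1*Δ stood apart from the other mutants, the profiles were subtracted from each other in the same fit. The reference cancels in such a difference as far as it was the same RNA. All calls among the 10 genes were higher in *ctk1*Δ. Against *eaf3*Δ (7.52% of all features called in either direction) and *rco1*Δ (6.76%), 6 of 10 differed: *HSP12*, *HSP26*, *HSP30*, *HSP42*, *HSP78* and *SSA4*. These mutants carry the same extraction labels as *ctk1*Δ in both dyes. *HSP26* differed most, by 2.84 (95% confidence interval 1.86 to 3.82) from *eaf3*Δ and by 2.72 (1.75 to 3.70) from *rco1*Δ. *HSP30* differed by 0.80 and 0.77, close to the fold minimum, and its calls were lost without array b of either mutant, and against *rco1*Δ without array a of *ctk1*Δ. With the deposited processed ratios they were 0.74 and 0.76, under the fold minimum.

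Against *rtt103*Δ (7.48%), *rrp6*Δ (11.6%) and *lrp1*Δ (10.2%), 5 of 10 differed, the same genes without *HSP30*. Against *set2*Δ (6.95%) 4 did, with differences of 2.14 in *HSP26*, 2.09 in *HSP12*, 1.48 in *HSP42* and 0.82 in *SSA4*. *HSP78* differed from *set2*Δ by 0.61, with an interval of −0.01 to 1.23. Without array b of *set2*Δ or array b of *ctk1*Δ, the calls of *HSP42* and *SSA4* against *set2*Δ were lost, and 2 remained. The extraction labels of these 4 deletion mutants differ from those of *ctk1*Δ in the mutant dye, so extraction and mutation cannot be told apart there.

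Against the termination mutants most called genes were those under both factors. These mutants also differ from *ctk1*Δ in mating type genes and in the extraction label of the reference, which cannot be told apart from the mutation. From *sen1-1* (7.41%) *ctk1*Δ differed in 4 of 10 genes, by 1.43 in *HSP42*, 1.42 in *HSP12*, 1.27 in *HSP78* and 1.07 in *SSA4*. From *pcf11-2* (6.97%) it differed in *SSA4* by 1.31 (0.71 to 1.91, adjusted p = 0.0033) and in *HSP78* by 1.17 (0.39 to 1.94, adjusted p = 0.025). From *pcf11-ts2* (5.52%) it differed in *HSP42*, *SSA4* and *HSP78*, by 1.45, 1.45 and 1.15. *HSP26* was close to the threshold, with differences of 1.16 from *sen1-1* (adjusted p = 0.055) and 1.59 from *pcf11-ts2* (adjusted p = 0.053), and both passed with the processed ratios and with no background correction. *HSP12* differed from *pcf11-2* by −0.07, with an interval of −1.18 to 1.05, and from *pcf11-ts2* by 0.55 (−0.56 to 1.66), so that differences of over 1.7-fold lay within both intervals.

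These contrasts rest on few arrays. With either *ctk1*Δ array left out, only *SSA4* stayed called against each *pcf11* allele. Against *sen1-1* between 1 and 6 genes were called as single arrays were left out, 1 of them (*SSA4*) without array b of *sen1-1*. With 18 arrays in the fit, those in YPD left out, 4 of 10 genes differed from *pcf11-2*, *HSP26* and *HSP42* besides. *HSP104* was 0.46 to 0.95 higher in *ctk1*Δ than in the 9 other mutants, and no difference was called (adjusted p between 0.056 and 0.41). It was called against 6 mutants with the YPD arrays left out, against 5 with the deposited processed ratios and against 3 with median centring in place of loess. For *HSP82* the differences were between −0.02 and 0.34, and no interval reached a 1.7-fold change, the widest upper end being 0.61 against *rco1*Δ.

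**Figure D4:**
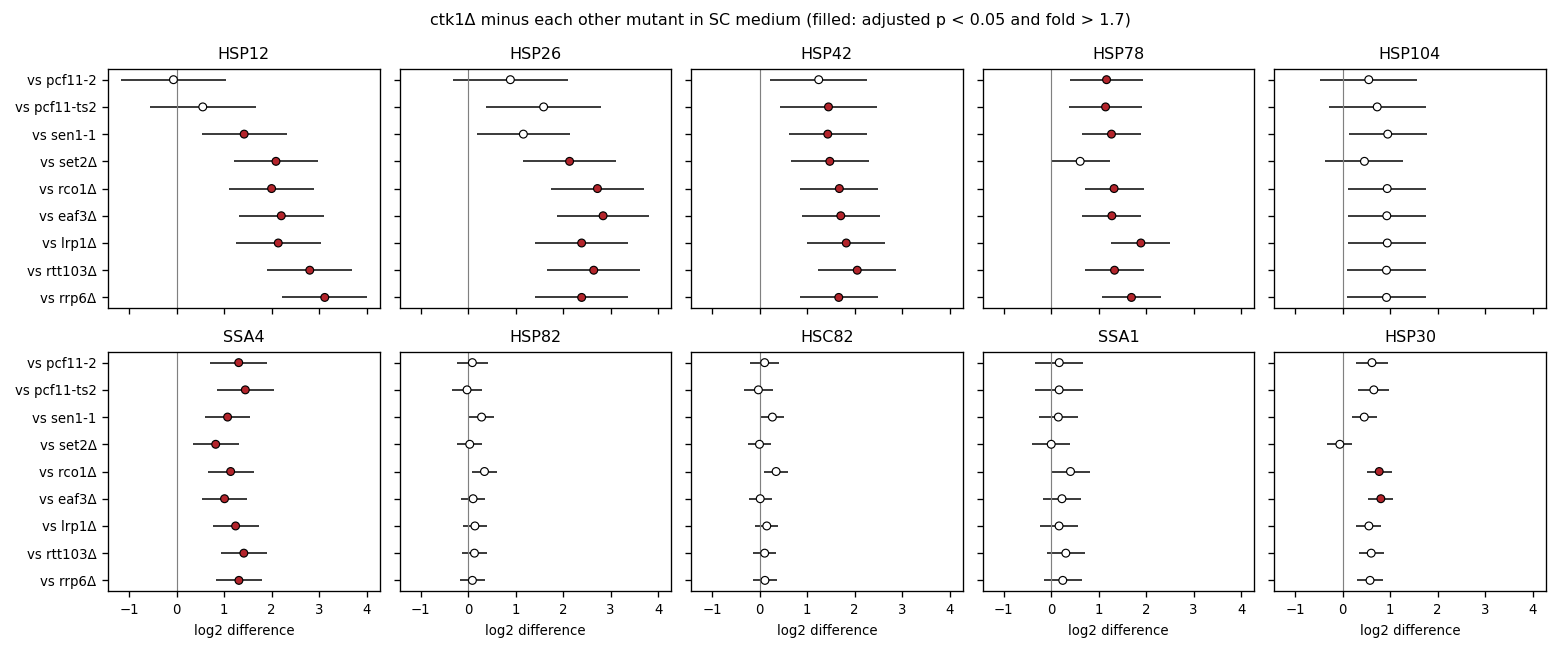
Log2 difference of *ctk1*Δ minus each other mutant in SC medium (x axis, with 95% confidence intervals) for each of the 10 genes (panels). Filled points passed an adjusted p of 0.05 and a fold of 1.7. *SSA4* passed against all 9 mutants and *HSP104* against none.

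Between *ctk1*Δ in YPD and *ctk1*Δ in SC no gene of the 10 was called (2.75% of all features were). An unadjusted p under 0.05 was found for 2 of 10, and for 1883 of all 6373 features. *HSP42* differed by −0.95 (interval −1.77 to −0.12, adjusted p = 0.11) and *HSP30* by −0.44 (adjusted p = 0.029, under the fold minimum), both lower in YPD. The extraction labels of mutant and reference also differ between these profiles, so that medium and extraction cannot be told apart. The outcome turned on the discordant array. Without array b of *ctk1*Δ in YPD 4 genes were called lower in YPD, with differences of −1.20 in *HSP12*, −0.79 in *HSP26*, −1.88 in *HSP42* and −0.85 in *HSP78*. Without array a, *HSP26* was called 1.45 higher.

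Between *rpb1-S2A* and *ctk1*Δ, both in YPD, no gene of the 10 was called either (1.98% of all features). Here 1 of 10 had an unadjusted p under 0.05, as did 1638 of all 6373 features. The differences were 0.62 in *HSP42* (interval −0.21 to 1.44), 0.58 in *HSP78* (−0.04 to 1.20), −0.40 in *HSP12* (−1.30 to 0.49) and −0.56 in *HSP26* (−1.54 to 0.42). Each of these intervals reached past 1.7-fold on one side, upward for *HSP42* and *HSP78* and downward for *HSP12* and *HSP26*. Without array a of *ctk1*Δ, *HSP12* and *HSP26* were called lower in *rpb1-S2A*, with differences of −1.25 and −1.68. Without array b, *HSP42* and *HSP78* were called 1.55 and 1.24 higher. These strains also differ in mating type genes, and array b of *rpb1-S2A* in the extraction label of the mutant.

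The *pcf11* alleles have 1 array each, of opposite dyes, so that their difference is set apart from the dye only through the dye term fitted on the other mutants. Between *pcf11-2* and *pcf11-ts2* no gene was called (1.1% of all features), and none had an unadjusted p under 0.05. *pcf11-2* was 0.62 higher in *HSP12* (−0.71 to 1.94) and 0.70 higher in *HSP26* (−0.75 to 2.15). Between *pcf11-2* and *sen1-1*, which have the same extraction labels and mating type genes, 1 gene differed (5.81% of all features). *HSP12* was higher in *pcf11-2* by 1.49 (0.38 to 2.6, adjusted p = 0.049), and the call was lost without array b of *sen1-1* (0.81, adjusted p = 0.35).

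The wider set of stress and chaperone genes was read from lists in the same fit, written with earlier results of these data known. Over all features 7.28% rose in *ctk1*Δ in SC, 6.79% in *ctk1*Δ in YPD, 7.23% in *rpb1-S2A* and 5.54% in *pcf11-2*. The share was 3.17% in *pcf11-ts2*, 5.21% in *sen1-1*, 1.35% in *set2*Δ and 0.769% in *rco1*Δ. It was 0.549% in *eaf3*Δ, 1.63% in *rrp6*Δ, 0.973% in *lrp1*Δ and 0.126% in *rtt103*Δ. The 30 stress genes that encode no chaperone, most of them metabolic genes under Msn2 and Msn4, rose in large number: 27 of 30 in *ctk1*Δ in SC, 27 in *ctk1*Δ in YPD (12 without its array b), 21 in *rpb1-S2A* and 23 in *pcf11-2*. In *pcf11-ts2* and *sen1-1* 11 rose, the second count being 3 without array a and 17 without array b. In *set2*Δ 10 rose (4 without either array), in *rco1*Δ 8 (1 without array a, 5 without array b), in *eaf3*Δ and *rrp6*Δ 2, in *lrp1*Δ 1 and in *rtt103*Δ 0. In *rrp6*Δ 1 gene of the list fell, where 0.596% of all features fell. The median of the list was 1.54 in *ctk1*Δ in SC and −0.17 in *rrp6*Δ, against −0.0053 and −0.0022 over all features.

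In *pcf11-2*, therefore, 23 of 30 stress genes rose beside 2 of the 10 heat shock genes. The highest of the list in *ctk1*Δ in SC were *MSC1* at 3.30, *ALD3*, an aldehyde dehydrogenase, at 2.89, *DDR2*, a small stress protein, at 2.84 and *RTN2*, a reticulon, at 2.83. In *pcf11-2* they had 3.10, 2.63, 2.47 and 1.96.

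Of 17 cochaperones 2 rose in *ctk1*Δ in SC, where 7.28% of all features rose. They were *SSE2*, an exchange factor of Hsp70, at 1.26 (adjusted p = 5.8e-05), and *BTN2*, which gathers misfolded proteins, at 1.00. *HCH1*, an Hsp90 regulator, stood at 0.70 and *SIS1*, a J-protein, at 0.61. Another pair rose in *ctk1*Δ in YPD (6.79% of all features) and in *rpb1-S2A* (7.23%). They were *HCH1* at 0.84 and 0.95 and *SBA1*, an Hsp90 cochaperone, at 0.92 and 0.85. The 8 subunits of the cytosolic chaperonin CCT were called in no profile, with *CCT3* at −0.27, *CCT5* at −0.17, *CCT8* at −0.16 and *CCT7* at −0.15 in *ctk1*Δ in SC. The same held for the 5 measured cytosolic Hsp70 genes outside the 10 and their partners. In *ctk1*Δ in SC *SSA3* had 0.57, under the fold minimum, *ZUO1* −0.35 and *SSB1* −0.29. Over all features 0.126% to 7.28% rose and 0.141% to 5.16% fell in a profile. The lack of calls among these 8 and 5 genes is near those shares.

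Of the 8 chaperones of the endoplasmic reticulum 2 rose in *ctk1*Δ in SC, where 7.28% of all features rose. They were *ERO1*, an oxidase, at 1.13 and *KAR2*, the Hsp70 of this compartment, at 0.94. Both also rose in *rpb1-S2A*, at 0.79 and 0.83 (7.23% of all features). *ERO1* rose in *sen1-1* as well, at 0.80 (5.21%), and 1 gene of this list fell in *rrp6*Δ, where 0.596% of all features fell. *JEM1* at 0.62 and *PDI1* at 0.49 were under the fold minimum in *ctk1*Δ in SC. Of the 7 mitochondrial chaperones 3 rose in *rpb1-S2A* (7.23% of all features). In *ctk1*Δ 0 rose in SC (7.28%) and in YPD (6.79%), so that 0 of 7 is near that share. In *ctk1*Δ in SC *MDJ1* had 0.71, *HSP10* 0.41, *SSQ1* 0.36 and *ECM10* 0.34.

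The relatives of *HSP30* had calls in both directions. *MRH1*, a membrane protein of the same family, fell by 0.98 in *ctk1*Δ in SC (adjusted p = 4.4e-08), by 1.15 in *ctk1*Δ in YPD and by 1.47 in *rpb1-S2A*. *YRO2*, the other relative, had −0.11 in *ctk1*Δ in SC, fell by 0.93 in *ctk1*Δ in YPD, by 1.44 in *rpb1-S2A* and by 0.90 in *sen1-1*, and rose in *rrp6*Δ (1.7) and *lrp1*Δ (0.78). *HSP31*, a glyoxalase and chaperone, fell by 1.16 in *ctk1*Δ in YPD (adjusted p = 2.9e-06) and by 1.86 in *rpb1-S2A*, and had −0.03 in *ctk1*Δ in SC. *SNO4*, another gene of that family, rose in *pcf11-2* (1.47).

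Among the regulators, *HSF1*, *MSN2* and *MSN4* had −0.08, 0.30 and 0.23 in *ctk1*Δ in SC and were called in no profile. *MSN4* varied most of these, with 0.67 in *rrp6*Δ (adjusted p = 3.5e-07), 0.57 in *pcf11-ts2*, 0.55 in *lrp1*Δ, 0.50 in *pcf11-2* and −0.44 in *rpb1-S2A* (adjusted p = 4e-06), all under the fold minimum. Of the 11 measured regulators 2 rose, both encoding kinases that act when protein kinase A is low. They were *YAK1* at 0.86 and *RIM15* at 0.82 in *ctk1*Δ in SC, where 7.28% of all features rose. *RIM15* also rose in *ctk1*Δ in YPD, at 0.79 (6.79% of all features). *BCY1*, the inhibitory subunit of protein kinase A, had 0.50, and *BMH2*, a 14-3-3 protein, 0.46.

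**Figure D5:**
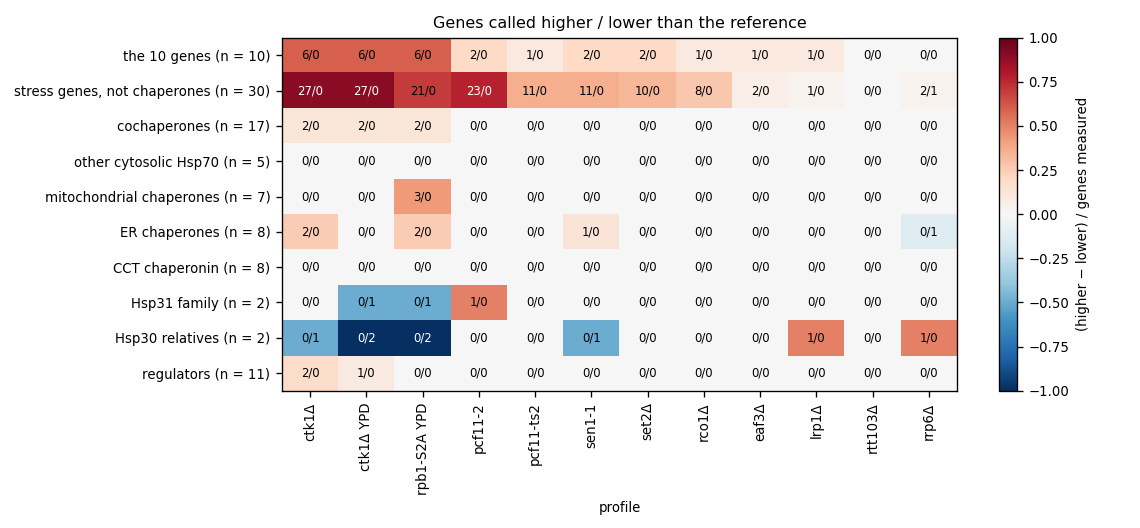
Number of genes called higher and lower than the reference (first and second number in each cell) for the 10 genes and the other lists (rows) in each profile (columns). The colour shows the number higher minus the number lower over the genes measured. The 10 genes have 6 calls in *ctk1*Δ, *ctk1*Δ in YPD and *rpb1-S2A*, and the stress genes outside the chaperones 27, 27 and 21.

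The 10 genes differed in how alike their profiles were. Over the 12 profiles, which share the reference and include 2 of *ctk1*Δ, Pearson's r between pairs of the 10 genes ran from 0.27 (*HSP12* and *HSP30*) to 0.97 (*HSP82* and *HSC82*). *HSP78* and *HSP104* had an r of 0.95, and *HSP12* and *HSP26* one of 0.85. Among all other named genes, those most like *HSP12* were *MSC1* (r = 0.97), *GUT2*, the mitochondrial glycerol-3-phosphate dehydrogenase (0.96), and *CYC7*, the second isoform of cytochrome c (0.96). Those most like *HSP104* were *RAD54*, a recombination repair gene (0.97), *SEC8*, an exocyst subunit (0.96), and *CUE3* (0.96). For *HSP82* the closest were *AI1*, *PRP22*, a splicing helicase, and *VPS41*, a vacuolar sorting gene, all at 0.84. These genes were picked for the highest r among all other named genes, so a high r follows from the choice, and none was tested. Some spans are small: *SEC8* ran from −0.06 to 0.45 over the profiles. *HSP82* had a range of 0.49, with a mean SE of 0.09.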

How the data were processed

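The members, classes and gene lists were chosen with earlier results of these data known. The authors deposited scanner intensity values of every spot without normalization, and log2 ratios per spot that were normalized and dye-bias corrected. Per the labels this was done in limma (2.12.0 on 6 arrays, no version on 16). The results rest on the intensities. The processed ratios, with 6 of 22 columns turned to mutant over reference, were tried as an alternative. Mean signals were corrected by normexp (offset 50), normalized by loess over gene spots in limma 3.58.1 (R 4.3.3), and averaged over the 2 spots of a probe and the probes of a gene. Of 6388 probes, 5326 have 1 symbol, 0 several and 1062 none in the platform annotation, and 58 symbols were updated through the RefSeq gene table. One model with 12 profile coefficients and a dye term (equal to the replicate letter) gave all tests, with 9 residual and 3.7 prior degrees of freedom. The study tested against a collection of wild type cultures, not used here. The reference RNA is thus the only control, and the tests leave out the spread of the controls. Profiles with 1 array were assumed to vary like the others. Spots at 65000 or more counted as saturated, and spots over 2.6 SD above local background as detected. Precision is limited by the number of arrays. The fit was tested on simulated data. All 10 genes are named in every profile. From each other list up to 4 genes with the largest ratio in *ctk1*Δ in SC are named, and called regulators. *SNO4*, *YRO2*, *HSF1*, *MSN2* and *MSN4* are named beside them for their list, and *SBA1* was chosen after its values were seen. *SSA2*, *HSP32* and *HSP33* were not found by symbol. Probe and promoter sequences were not used here.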

Additional observations from a re-analysis of the deposited data

Results flagged for a closer look

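*HSP31*, from the list of its family, differed between media under the same deletion. It had −1.16 in *ctk1*Δ in YPD and −0.03 in *ctk1*Δ in SC, a difference of −1.13 (SE 0.17, limma contrast, adjusted p = 0.00071, n = 2 arrays each). Medium and extraction labels differ between these profiles together. No group had enough arrays for a search for outlying arrays.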

How the results depend on the processing

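Of the 120 ratios of a gene in a profile, 120 kept their call and sign with no background correction, with median centring in place of loess, without features near background (6041 left) and with no replicate block. The replicate letter, which is the dye, was in the fit; the deviations of same-lettered arrays correlated between −0.36 and 0.76 over 45 pairs of profiles, and without the block 6, 6 and 6 genes still rose in *ctk1*Δ in SC, *ctk1*Δ in YPD and *rpb1-S2A*. The processed ratios kept 119, with 1 gene rising in *rtt103*Δ (*HSP12*), as it also did among the 18 arrays not in YPD and at an unadjusted p. Those 18 arrays gave 3 more ratios that passed, with 2 genes that rose in *pcf11-ts2* and 3 in *pcf11-2*. Among differences between mutants, the processed ratios gained 8 calls and lost 2 (*HSP30*), the 18 arrays gained 10, with 4 genes that differed between *ctk1*Δ and *pcf11-2*, and no background correction gained 2. No replicate block and the filter on dim features gained 1 each, *HSP26* between *ctk1*Δ and *pcf11-ts2*. Median centring gained 3 (*HSP104*) and lost 3, so that 1 gene differed between *ctk1*Δ and *pcf11-ts2* and 0 between *pcf11-2* and *sen1-1*.

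With each feature centred on its median over the profiles, 107 of the 120 kept call and sign. The counts that rose became 0 in *sen1-1*, *pcf11-ts2*, *lrp1*Δ, *rco1*Δ, *eaf3*Δ and *set2*Δ and 1 in *pcf11-2*, with 5 each in *ctk1*Δ in YPD (*HSP42* lost) and *rpb1-S2A* (*SSA4* lost), and 1 gene fell in each of *rtt103*Δ and *rrp6*Δ. *HSP12* turned to −0.29 in *rco1*Δ, −0.38 in *set2*Δ, −0.43 in *lrp1*Δ, −0.49 in *eaf3*Δ, −1.09 in *rtt103*Δ and −1.41 in *rrp6*Δ, and the Msn2/Msn4-type median was above the Hsf1-type median on 10 arrays. This moves the zero from the reference to the mutants, so that what most mutants share is removed. Called features were fewer as well in 9 of 12 profiles, for example 252 in *ctk1*Δ in SC, against 645, and more in *rtt103*Δ (91, against 81), *rrp6*Δ (185, against 142) and *lrp1*Δ (109, against 80).

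With no fold minimum 7 genes rose in *ctk1*Δ in SC (*HSP30* added), 9 in *rpb1-S2A* (*HSP82*, *HSC82* and *SSA1* added), 2 in *eaf3*Δ, 4 in *set2*Δ and 4 in *sen1-1*, 1 fell in *eaf3*Δ and in *rco1*Δ (*HSP30*), and 1 differed between *ctk1*Δ in YPD and in SC. Over all features this rule called 3906 in *ctk1*Δ in SC. At an unadjusted p with the fold minimum, 1 gene differed between *ctk1*Δ in YPD and in SC, 3 rose in *pcf11-2*, and *ctk1*Δ in SC differed in 1 gene more (*HSP104*) from *lrp1*Δ, *rrp6*Δ, *rco1*Δ, *eaf3*Δ and *rtt103*Δ, in 6 from *sen1-1*, in 3 from *pcf11-2* and in 4 from *pcf11-ts2*.

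With single arrays left out, the count that rose dropped in *ctk1*Δ in YPD without array b. It moved both up and down in *set2*Δ and *sen1-1*. *HSP12*, the only gene that rose in *eaf3*Δ and *lrp1*Δ, lost its call there with either array left out. Counts of genes that differed from *ctk1*Δ ran from 2 to 4 for *set2*Δ, 1 to 6 for *sen1-1* and 1 to 1 for each *pcf11* allele. They ran from 0 to 4 for *ctk1*Δ in YPD against SC, 0 to 2 for *rpb1-S2A* against *ctk1*Δ in YPD and 0 to 1 for *pcf11-2* against *sen1-1*. *HSP26* in *ctk1*Δ in YPD minus SC ran from −0.79 to 1.45 and so changed sign. The cause of these changes was not tested. The *pcf11* alleles have 1 array each and could not be left out, and a search for stress response and heat shock elements in promoters was not run.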
